A study of Mus musculus with 12 samples.

Results

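The RNA levels of Ctnnb1 and of 9 genes that the Wnt pathway is known to switch on, or that restrain it, were examined in MYC-driven mouse livers and in xenografts of mouse liver cancer cells. The paper describes the livers as bearing MYC-driven tumors themselves. Unless stated otherwise, the word tumors below names the xenografts. The 10 genes (Ctnnb1, Axin2, Lgr5, Tbx3, Znrf3, Rnf43, Notum, Nkd1, Sp5 and Lef1) were chosen by name as genes of the pathway, with earlier results of these data known, out of 24062 genes counted in each library. Polyadenylated RNA of 12 mice was sequenced, with 3 mice in each of 4 groups. Of these, 6 were livers of male FVB mice carrying LAP-tTA and TRE-MYC, in which a liver promoter drives the transgene of human MYC from birth once doxycycline is withdrawn. They were fed the control diet (mice 101, 102 and 103) or the No-Trp diet, which lacks Trp (mice 105, 107 and 108). The other 6 were HCC53N xenografts, subcutaneous tumors in NOD SCID females, raised from a single line of mouse liver cancer cells, on the control diet (mice 40, 41 and 43) or the No-Trp diet (mice 35, 36 and 37). The line was derived from liver tumors of mice in which Alb-Cre, active in liver cells, deletes p53 and mutant NRAS is overexpressed. The labels also call its genotype FVB MYC ON, and whether it carries the MYC transgene was not settled here. NOD SCID hosts lack mature T and B cells. Diets were given for 21 days in both models, and the age of the sequenced mice at harvest was not settled here.

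Wnt proteins bind Frizzled receptors and Lrp co-receptors on the cell surface, which stops the destruction complex built on Axin and Apc from degrading beta-catenin, the product of Ctnnb1. Beta-catenin then enters the nucleus and switches on genes together with TCF and LEF factors, among them inhibitors that feed back on the pathway. In the liver, endothelial cells of the central vein make Wnt ligands and R-spondin, and the hepatocytes around that vein hold high Wnt activity. These pericentral hepatocytes make glutamine and break down foreign compounds, while periportal hepatocytes at the other end of the lobule run the urea cycle. Mutations that switch beta-catenin on are common in liver cancer.

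Between 14660963 and 26085349 reads per library were counted on genes. The precursor ribosomal RNA Rn45s took up to 12.1% of them, in control liver 101. As a check for duplicated libraries, each pair of replicates within a group was compared, and chi-square per degree of freedom was at least 34.6. Livers 101 and 108 and control xenografts 41 and 43 carry a resubmission mark in the deposit. Levels are counts per 1000000 reads (CPM), scaled with TMM factors over the 12 libraries. Calls used edgeR's quasi-likelihood test with both limits of the study's methods, an adjusted p (Benjamini-Hochberg) not above 0.05 and a log2 fold change no smaller in size than 1. SE stands for the standard error of a log2 fold change. With 3 mice against 3, a two-sided exact permutation test of a single gene cannot give a p under 0.1, so all adjusted p-values come from the models fitted across all genes. The livers expressed hepatocyte markers, with Alb at 12100 ± 11700 CPM on the control diet (SD, n = 3). The xenografts hardly did, with Alb at 236 ± 142 CPM on that diet (SD, n = 3), and each of the 12 hepatocyte markers was called lower there than in control livers. Trp53, the gene of p53, lay between 17.5 and 22.8 CPM in the xenografts and between 46.7 and 133 CPM in the livers.

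To show what sequence lies at the start of these genes, promoter windows of 300 bases (250 before to 50 after a start site) were taken from RefSeq on GRCm38.p6. They matched 6 of the 10 genes, with 11 windows. Each was searched on both strands for CTTTGAT and CTTTGAA, letters that TCF and LEF factors can bind. Capitals below mark matches. The window of Sp5 (chr2:70474673-70474972, plus strand) held 1 match, to CTTTGAT, whose first base lies at position -104 from the start site. Those of Axin2 (chr11:108920099-108920398, plus strand) and Rnf43 (chr11:87662837-87663136, plus strand) are shown beside it as genes of the same group without these letters.
Sp5: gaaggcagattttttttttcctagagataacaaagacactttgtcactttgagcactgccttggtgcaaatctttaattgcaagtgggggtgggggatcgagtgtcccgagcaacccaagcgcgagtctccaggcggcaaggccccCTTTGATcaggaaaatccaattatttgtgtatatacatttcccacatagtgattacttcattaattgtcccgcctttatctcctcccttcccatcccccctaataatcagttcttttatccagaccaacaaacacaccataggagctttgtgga
Axin2: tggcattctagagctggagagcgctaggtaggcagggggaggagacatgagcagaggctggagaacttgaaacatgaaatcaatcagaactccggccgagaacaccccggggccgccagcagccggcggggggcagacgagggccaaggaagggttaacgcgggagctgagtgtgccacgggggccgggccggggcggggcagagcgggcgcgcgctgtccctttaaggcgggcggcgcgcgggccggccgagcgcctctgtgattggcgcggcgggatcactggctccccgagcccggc
Rnf43: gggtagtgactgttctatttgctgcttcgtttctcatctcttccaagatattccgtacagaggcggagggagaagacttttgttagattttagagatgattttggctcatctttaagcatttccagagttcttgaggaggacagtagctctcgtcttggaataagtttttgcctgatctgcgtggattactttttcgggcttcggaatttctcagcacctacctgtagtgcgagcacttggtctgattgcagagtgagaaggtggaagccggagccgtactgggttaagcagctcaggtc
Either motif was in 1 of the 11 windows (9.09%) and in 2842 of all 32851 windows (8.65%), a near-equal share. A match of letters is a description and not a site shown to be bound, and no match says nothing of sites elsewhere.

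The 10 genes differed widely in level, which was compared between genes only as CPM per kilobase of exon. In control livers, Ctnnb1 (chr9:120929216-120960507) stood at 90.5 ± 12.3 CPM per kilobase (SD, n = 3). Znrf3 (chr11:5276324-5444847) was next at 4.42 ± 0.489 CPM per kilobase and its range overlapped that of Notum (chr11:120653788-120661175, 1.86 ± 1.91). Below them followed Tbx3 (chr5:119670669-119684724), Rnf43 (chr11:87662722-87735539), Nkd1 (chr8:88521354-88594884) and Axin2 (chr11:108920349-108950783), from 0.717 down to 0.232 CPM per kilobase. Lgr5 (chr10:115450311-115587780), Sp5 (chr2:70474923-70477729) and Lef1 (chr3:131110471-131224356) closed the order at 0.0890, 0.0345 and 0.0255 CPM per kilobase. Below Ctnnb1, each gene overlapped the next in this order between its 3 mice. In No-Trp livers the order below Ctnnb1 was led by Notum at 12.2 ± 6.57 CPM per kilobase, ahead of Rnf43 at 3.27 ± 1.70 and Znrf3 at 3.15 ± 0.258, of which Rnf43 and Znrf3 overlapped. In both xenograft groups Znrf3 and Rnf43 came after Ctnnb1, with their ranges overlapping on the control diet and Rnf43 above Znrf3 on the No-Trp diet. Ctnnb1 was 20.5 times the next gene in control livers, 6.57 times in No-Trp livers, 105.0 times in control xenografts and 75.0 times in No-Trp xenografts.

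The comparison of diets in the livers asks how removal of Trp bears on gene expression in a MYC-driven liver. The paper reports that livers on the No-Trp diet weighed less and had fewer, smaller tumors. Tumor content thus differed together with the diet, and its part in the values below was not tested. Of the 10 genes, 8 passed the filter on low counts, and 2 of these, Rnf43 and Notum, rose on the No-Trp diet. Over all 14122 genes tested, 9.28% were called higher and 7.27% lower (16.5% in all), and 25.3% passed on the adjusted p alone. These were 1311 genes higher and 1026 lower, against 732 and 1532 when library totals served for scaling. The median log2 fold change of the 8 genes was 1.62, against -0.00309 over all genes tested, and 6 of the 8 were positive. The other 4 positive genes (Axin2, Lgr5, Tbx3 and Nkd1) did not pass the test. Ctnnb1, which makes the effector, and Znrf3, itself a feedback inhibitor, had negative log2 fold changes of -0.16 and -0.47 and did not pass it either.

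Ctnnb1 held 413, 457 and 539 CPM in control mice 101, 102 and 103, and 414, 432 and 400 CPM in No-Trp mice 105, 107 and 108. The groups overlapped, and the log2 fold change was -0.16 (SE 0.190, 95% confidence interval -0.61 to 0.28, edgeR adjusted p = 0.548). A total of 759 bases of Ctnnb1 exons overlap Ulk4 on the opposite strand, and since the strand setting of the counting is not given, reads there cannot be assigned with certainty.

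Znrf3 and Rnf43 encode membrane ubiquitin ligases that remove Frizzled receptors from the cell surface, and their log2 fold changes had opposite signs. Rnf43 held 1.83, 8.34 and 2.63 CPM in control mice 101, 102 and 103, and 27.2, 28.5 and 8.55 CPM in No-Trp mice 105, 107 and 108. The groups did not overlap, as in 48.6% of all genes tested (23.6% with the No-Trp mice higher and 25.0% lower), but mouse 108 exceeded control mouse 102 only slightly. Rnf43 rose 5.14-fold (log2 fold change 2.36, SE 0.689, edgeR adjusted p = 0.0462). Znrf3 held 35.3, 30.9 and 38.6 CPM on the control diet and 26.2, 25.8 and 22.5 CPM on the No-Trp diet. All 3 No-Trp mice lay below all 3 control mice, with a log2 fold change of -0.47 (SE 0.168, edgeR adjusted p = 0.0749), which did not pass the test.

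Lgr5, a receptor for R-spondins that marks pericentral hepatocytes and stem cells of other organs, was scarce. It had 7, 32 and 15 reads in the control mice and 45, 42 and 18 in the No-Trp mice (0.338, 1.80 and 0.599 CPM against 2.57, 2.58 and 1.40). Control mouse 102 lay above No-Trp mouse 108, and the log2 fold change of 1.31 (SE 0.629) did not pass the test (edgeR adjusted p = 0.158).

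Among the inhibitors, Notum, a secreted enzyme that removes the lipid from Wnt proteins, differed most. It held 1.93, 9.80 and 1.72 CPM in control mice 101, 102 and 103, and 32.4, 43.4 and 12.2 CPM in No-Trp mice 105, 107 and 108. The groups did not overlap, and Notum rose 6.72-fold (log2 fold change 2.75, SE 0.799, edgeR adjusted p = 0.0464). Its exons overlap Notumos and Myadml2os on the opposite strand. Axin2, a scaffold of the destruction complex and a common readout of Wnt activity, had 16, 43 and 16 reads on the control diet and 105, 52 and 23 on the No-Trp diet (0.772, 2.42 and 0.639 CPM against 6.0, 3.20 and 1.79). Nkd1, an intracellular inhibitor that binds Dishevelled, held 1.11, 3.32 and 0.479 CPM on the control diet and 4.86, 7.25 and 3.03 CPM on the No-Trp diet. In both genes control mouse 102 lay above No-Trp mouse 108. The log2 fold changes were 1.56 for Axin2 (SE 0.650, edgeR adjusted p = 0.113) and 1.67 for Nkd1 (SE 0.690, edgeR adjusted p = 0.111).

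Of the transcription factors, Tbx3, a T-box repressor and known target of beta-catenin in liver, held 5.60, 7.38 and 1.28 CPM on the control diet and 27.7, 18.1 and 6.99 CPM on the No-Trp diet. Mouse 108 again lay within the control range, and the log2 fold change was 1.92 (SE 0.708, edgeR adjusted p = 0.0853). Sp5, a zinc finger factor of the Sp family, had 1, 3 and 0 reads on the control diet and 6, 8 and 1 on the No-Trp diet. Lef1, one of the LEF and TCF factors, had 3, 3 and 9 reads against 8, 1 and 4. Both were too low to be tested, and a difference was not detectable at this depth.

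**Figure D1:**
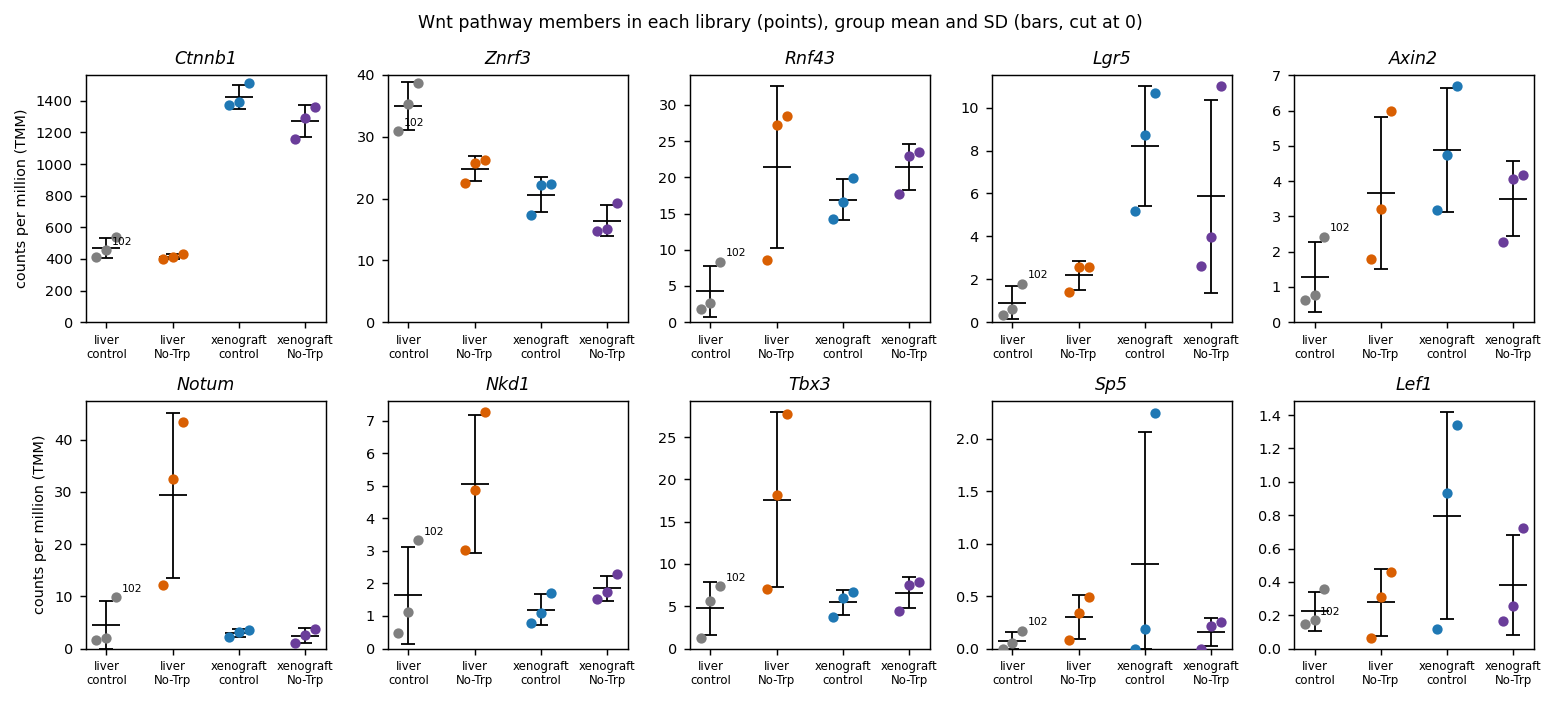
CPM of the 10 genes (vertical axes, each from 0) in the 4 groups (horizontal axis), with 1 point per mouse, the group mean and the SD as bars (n = 3). Control liver 102 is marked. For Rnf43 the No-Trp livers run from 8.55 to 28.5 CPM, just above mouse 102 at 8.34 CPM, and Ctnnb1 stands higher in every xenograft than in any liver.

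Single mice within a diet differed widely. Relative to the mean of the control livers on the log2 scale, control mouse 102 stood at 1.25 for Rnf43, 1.20 for Lgr5, 1.11 for Axin2, 1.58 for Notum, 1.36 for Nkd1 and 0.95 for Tbx3. No-Trp mouse 108 stood at 1.29, 0.85, 0.69, 1.89, 1.23 and 0.87 for the same genes. The 2 mice thus lay side by side, with mouse 108 the higher for Rnf43 and Notum and mouse 102 for the other 4. No-Trp mice 105 and 107 lay above all other livers in each of these 6 genes.

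The 2 calls depended on single mice, as did calls over all genes. Without control mouse 102, edgeR called 5 of the genes higher (Axin2, Lgr5, Rnf43, Notum and Nkd1), with log2 fold changes of 3.26 for Rnf43 and 4.01 for Notum. Without control mouse 101 or 103, or No-Trp mouse 105 or 107, it called 0 of them, and without mouse 108 it called Rnf43 and Notum. The direction held in each of these 6 fits for all 8 genes tested. Both calls were lost when libraries were scaled by their totals and when no filter on low counts was used, each of which called 0 of the 10 genes. With the resubmission mark as a covariate both calls stood, at log2 fold changes of 2.33 for Rnf43 and 2.73 for Notum. DESeq2 called Tbx3 and Nkd1 as well.

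**Figure D2:**
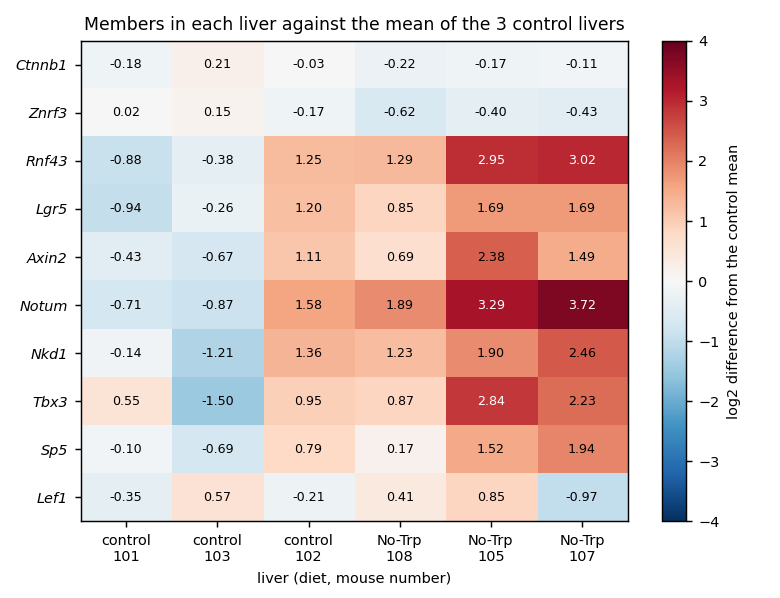
Log2 difference of each liver from the mean of the 3 control livers (colour and printed value) for the 10 genes (rows), with the livers as columns. Control mouse 102 and No-Trp mouse 108 hold similar values for Rnf43 (1.25 and 1.29), and mice 105 and 107 hold the highest for Rnf43, Lgr5, Axin2, Notum, Nkd1 and Tbx3.

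Other genes of the pathway were read from lists written with earlier results of these data known. In 9 lists of ligands, receptors, relay proteins, inhibitors, nuclear effectors, catenins and further targets, 69 of 92 genes were tested in the livers, 8 were called higher and 4 lower, with a median log2 fold change of 0.17. These counts lie near the shares over all genes tested, 9.28% higher and 7.27% lower. Among the ligands, Wnt2 and Wnt9b, which central vein endothelium is known to make, rose. Wnt2 held 0.965, 1.80 and 0.759 CPM on the control diet against 5.15, 5.41 and 2.64 CPM on the No-Trp diet (log2 fold change 1.94, SE 0.459, edgeR adjusted p = 0.0283). Wnt9b held 0.531, 1.46 and 0.798 CPM against 2.92, 4.49 and 2.18 CPM (log2 fold change 1.81, SE 0.486, edgeR adjusted p = 0.0366). The groups did not overlap in either gene, and neither did they in Rspo3, the R-spondin of the central vein. Rspo3 held 0.627, 2.25 and 0.679 CPM against 6.23, 7.99 and 4.51 CPM and rose 5.41-fold (log2 fold change 2.44, SE 0.554, edgeR adjusted p = 0.0261). Each of the 3 lost its call in 4 of the 6 fits without 1 mouse. Of the 26 genes outside the 10 that are named below or above as called in this comparison, 24 were still called without control mouse 102, 19 without No-Trp mouse 108, 11 without 107, 3 without 105, 2 without control mouse 101 and 0 without 103.

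Of the Wnt secretion genes, Porcn, which attaches the lipid to Wnt proteins, rose (log2 fold change 1.36, edgeR adjusted p = 0.0310), while Wls, which carries them to the surface, had a log2 fold change of 0.22 (edgeR adjusted p = 0.447). Among 12 receptors tested, Fzd1 rose by 1.80 on the log2 scale, and Lgr4, a relative of Lgr5, had a log2 fold change of 0.06 (edgeR adjusted p = 0.834). None of 14 relay and destruction complex genes was called, with log2 fold changes of 0.20 for Apc, -0.20 for Axin1 and 0.50 for Gsk3b. Of these 14, Gsk3b (edgeR adjusted p = 0.0448) and Tnks2 (log2 fold change -0.76, edgeR adjusted p = 0.0417) missed only the fold threshold, as did the receptor Fzd5 (-0.86, edgeR adjusted p = 0.0261) and Kremen1, a co-receptor of Dkk inhibitors (0.82, edgeR adjusted p = 0.0307). Tnks2, Fzd5 and Kremen1 were named after their values were seen. Sfrp1, a secreted protein that binds Wnts, was the 1 called of 8 secreted inhibitors tested and fell by 1.66 on the log2 scale. The co-activators of beta-catenin Bcl9l and Pygo1 were called in different directions (log2 fold changes 1.38 and -1.45), and the corepressor Tle2 rose by 1.18. Among 4 TCF and LEF genes, Lef1 was not tested, and the log2 fold changes were 0.19 for Tcf7l2, -0.30 for Tcf7l1 and 0.31 for Tcf7, with edgeR adjusted p of at least 0.394. Jup, a relative of beta-catenin in cell junctions, rose by 1.03 and Cdh1, the cadherin that binds beta-catenin at the membrane, fell by 1.44 on the log2 scale. Tnfrsf19 was the 1 called of 5 further targets tested and fell by 1.05.

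The pericentral and the periportal hepatocyte genes both pointed up. Of 14 pericentral genes, 3 were called higher and 14 of 14 were positive, with a median log2 fold change of 1.47. The calls were Slc22a3, a transporter of organic cations (log2 fold change 3.66), Lhpp, a phosphatase (2.31), and Cyp27a1, a sterol hydroxylase (1.93). Of 13 periportal genes tested, 7 were called higher and 12 were positive, with a median of 1.26. They included Arg1 of the urea cycle (log2 fold change 2.90), Hal, which breaks down histidine (2.68), and Cps1, which feeds the urea cycle (1.70).

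The best known pericentral targets did not pass the test. Glul, the glutamine synthetase, held 137, 334 and 164 CPM in control mice 101, 102 and 103 against 300, 419 and 274 CPM in No-Trp mice 105, 107 and 108 (log2 fold change 0.66, SE 0.360, edgeR adjusted p = 0.202). Cyp2e1 held 154, 2640 and 241 CPM against 3140, 6510 and 2620 CPM, and Cyp1a2 held 17.8, 227 and 9.78 CPM against 141, 173 and 15.1 CPM. Control mouse 102 lay within the range of the No-Trp mice in Glul and Cyp2e1, and above it in Cyp1a2. The log2 fold changes were 2.04 for Cyp2e1 (SE 1.09, edgeR adjusted p = 0.199) and 0.40 for Cyp1a2 (SE 1.27, edgeR adjusted p = 0.834). The periportal Cyp2f2 also had its highest level in mouse 102, at 456 CPM, against 27.1 and 22 CPM in the other control mice (log2 fold change 0.35, edgeR adjusted p = 0.830).

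**Figure D3:**
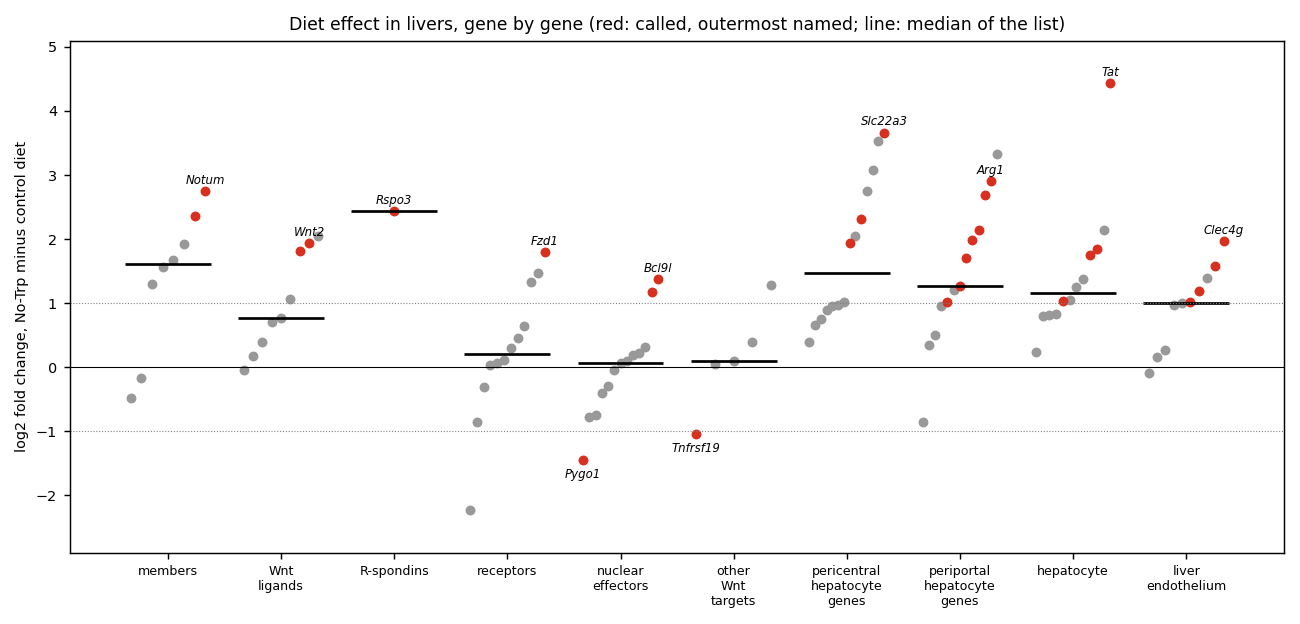
Log2 fold change between the diets in livers (vertical axis, No-Trp minus control) of each tested gene, by list (horizontal axis), with called genes in red and a line at the list's median. The medians are 1.62 for the 10 genes studied here (8 tested), 1.47 for pericentral genes and 1.26 for periportal genes. Those of general hepatocyte and of liver endothelial markers are 1.15 and 1.01, while receptors, nuclear effectors and further Wnt targets lie near 0.

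The summed markers of hepatocytes and of liver endothelium were also higher in the No-Trp mice, though not every single marker rose. The summed level of the 12 hepatocyte markers was 20000, 54100 and 16700 CPM in control mice 101, 102 and 103 and 74600, 151000 and 60800 CPM in No-Trp mice 105, 107 and 108, and 4 of 12 markers were called higher (Tat, Apob, Ttr and Cebpa). All 12 were positive, with a median log2 fold change of 1.15. The 10 endothelial markers summed to 160, 317 and 270 CPM against 465, 581 and 371 CPM, and 4 were called higher (Clec4g, Oit3, Tek and Stab1). Their median log2 fold change was 1.01, with 9 of 10 positive. Of the 6 not called, Pecam1, Cdh5 and Lyve1 had log2 fold changes of 0.16, -0.09 and 0.28. Those of Kdr, Stab2 and Eng were 1.39, 0.97 and 1.0. Control mouse 102 was the highest control mouse in both sums, as it was for Rnf43, Notum and the others. The red cell precursor markers went the other way, with 5 of 6 tested called lower, and summed levels of 58.9 to 587 CPM on the control diet and 16 to 25.6 CPM in the No-Trp mice. Hba-a1 and Hbb-bs were at 0 in every library. The part of these differences in the result was not tested, and in bulk RNA fewer cells of a type and less RNA per cell cannot be told apart.

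In the xenografts, the same comparison called 0 of the 9 genes tested, where 0.360% of all 14704 genes were called (0.245% higher and 0.116% lower, and 0.374% on the adjusted p alone). The 36 higher and 17 lower genes became 60 and 11 when scaled by library totals. None of the 9 had an unadjusted p under 0.05, against 2483 of all genes, and DESeq2 also called 0 of them. Ctnnb1 held 1370, 1510 and 1390 CPM in control mice 40, 41 and 43 and 1360, 1160 and 1290 CPM in No-Trp mice 35, 36 and 37. Its groups did not overlap, by a narrow margin, as in 22.5% of all genes tested (10.7% with the No-Trp mice higher and 11.8% lower). The log2 fold change was -0.18 (SE 0.143, 95% confidence interval -0.50 to 0.15, edgeR adjusted p = 0.574).

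The ligases Rnf43 and Znrf3 had little spread in the tumors. Rnf43 held 16.6, 14.2 and 19.9 CPM on the control diet and 23.5, 22.9 and 17.7 CPM on the No-Trp diet, with a log2 fold change of 0.33 (95% confidence interval -0.14 to 0.79). Znrf3 held 17.3, 22.2 and 22.3 CPM against 14.8, 19.3 and 15.1 CPM (log2 fold change -0.34, 95% confidence interval -0.80 to 0.11). Lgr5 varied more, with 5.20, 8.73 and 10.7 CPM against 11, 2.6 and 3.99 CPM. The highest value of all 12 libraries and the lowest of the tumors were both in No-Trp mice, and the log2 fold change of Lgr5 was -0.51 (95% confidence interval -1.75 to 0.74).

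The inhibitors and Tbx3 overlapped between the diets as well. Notum held 3.14, 2.19 and 3.59 CPM on the control diet and 2.68, 0.967 and 3.82 CPM on the No-Trp diet, with a log2 fold change of -0.27 (95% confidence interval -1.44 to 0.91). Axin2 held 3.19, 4.75 and 6.70 CPM against 4.17, 2.27 and 4.07 CPM (log2 fold change -0.49, 95% confidence interval -1.40 to 0.43). Nkd1 lay between 0.784 and 2.28 CPM over the 6 tumors (log2 fold change 0.63) and Tbx3 between 3.77 and 7.85 CPM (log2 fold change 0.26).

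Lef1 and Sp5 were scarce in the tumors, with 1 library apart. Lef1 had 19, 3 and 22 reads in control mice 40, 41 and 43 and 20, 5 and 6 in No-Trp mice 35, 36 and 37 (log2 fold change -1.03, SE 0.873, edgeR adjusted p = 0.590). Sp5 had 46 reads in control mouse 40 (2.25 CPM) but 0 and 3 in control mice 41 and 43, and 6, 0 and 6 in the No-Trp mice. The other 11 libraries, livers included, had at most 8 reads of Sp5, which was not tested. The other pathway lists had 0 of 70 genes called in the xenografts, with the smallest edgeR adjusted p, 0.0515, for Sox9 (log2 fold change -0.93) and 0.0813 for Tcf7l2 (-0.75), and Wnt9b and Rspo3 were too low to be tested. Slc22a3 was called among 13 pericentral genes tested (log2 fold change 4.69). Adipocyte markers, of which 2 of 5 were called higher (Plin1 and Adipoq), summed to 11.4 to 66.9 CPM in control and 351 to 739 CPM in No-Trp xenografts, and their part in these values was not tested. Of these 3 named calls, 1 stood in all 6 fits without 1 mouse.

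Whether the diet effect differed between the models was tested with the interaction term of 1 fit over the 12 libraries, given as the effect in xenografts minus that in livers. None of the 9 genes tested was called, where 12.7% of all 15472 genes were (6.70% higher and 6.01% lower, and 15.6% on the adjusted p alone). The 1036 higher and 930 lower genes became 1825 and 437 when scaled by library totals. The largest differences were those of Notum (-2.98, SE 1.0, edgeR adjusted p = 0.0645), Axin2 (-2.02, SE 0.806, edgeR adjusted p = 0.106) and Rnf43 (-2.0, SE 0.742, edgeR adjusted p = 0.0863), and these 3 had an unadjusted p under 0.05, as did 4980 of all genes. For Ctnnb1 the difference was 0.01 (95% confidence interval -0.47 to 0.50), with a sign that turned under 4 other settings and in 5 of the 12 fits without 1 library. The differences were -1.78 for Lgr5, -1.63 for Tbx3, -1.29 for Lef1, -0.99 for Nkd1 and 0.16 for Znrf3, with edgeR adjusted p of at least 0.194. Sp5 was too low to be tested. DESeq2 called Axin2, Rnf43 and Notum. The fit without control liver 102 called 4 genes (Axin2, Lgr5, Rnf43 and Notum), and those without No-Trp liver 108 or with the resubmission mark as a covariate called Rnf43 and Notum. For Rnf43 and Notum, called in the livers and not in the xenografts, a difference between the models was therefore not shown at the thresholds used.

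Among other genes of the pathway, the interaction passed for 2 of 73 genes tested in the higher direction and for 5 in the lower. Over all genes tested, 6.70% were called higher and 6.01% lower, so the pathway did not stand out by its count. Cdh1 (2.23, edgeR adjusted p = 0.00888) and Fzd5 (1.43, edgeR adjusted p = 0.0181) were higher. Tle2 (-2.05, edgeR adjusted p = 0.0171), Jup (-1.36, edgeR adjusted p = 0.0221), Fzd1 (-1.84, edgeR adjusted p = 0.0452), Sox9 (-1.0, edgeR adjusted p = 0.0452) and the transcription factor gene Myc (-1.66, edgeR adjusted p = 0.0459) were lower. Myc here is the mouse gene, and the study counted reads of the human MYC transgene apart. Between the diets, mouse Myc had log2 fold changes of 1.29 in livers and -0.40 in xenografts, neither of them called. Of the periportal genes 7 of 13 were lower, among them Arg1 (-2.45) and Cps1 (-2.06). Cdh1, Fzd5, Tle2 and Cps1 were called in each of the 12 fits without 1 library. The other 5 named here were not, and without control liver 103 all 5 lost their call. Of the 12 fits, Arg1 kept its call in 11 and Jup in 9, but Fzd1 in 3, Sox9 in 2 and Myc in 1.

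**Figure D4:**
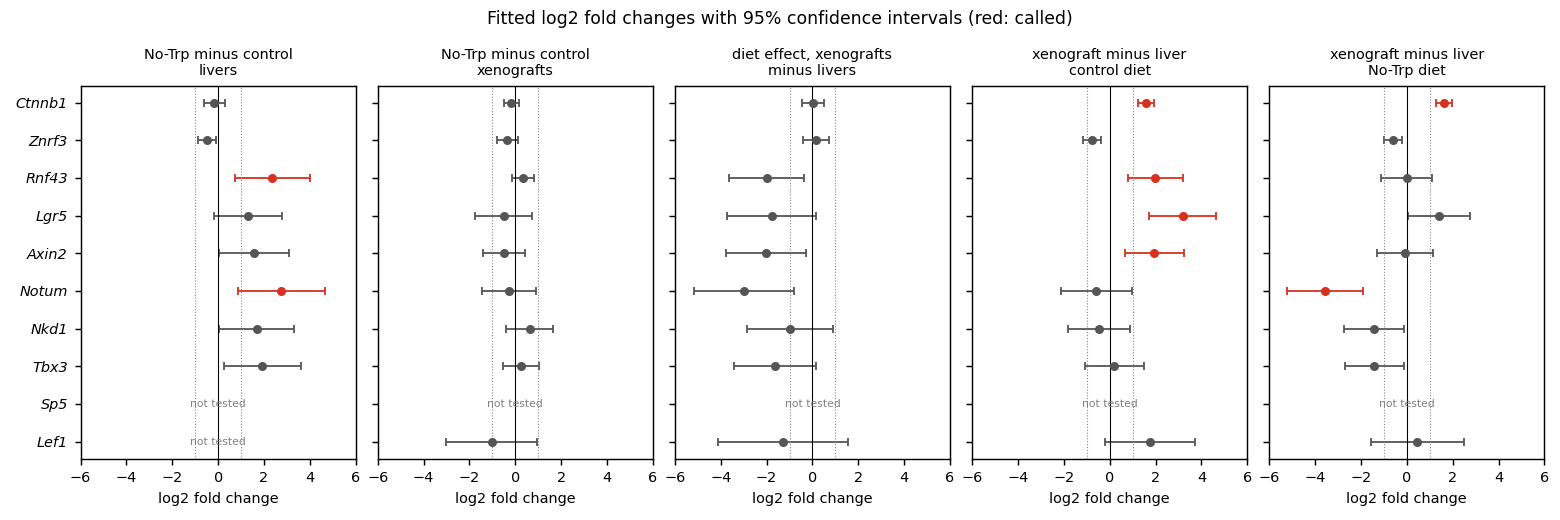
Fitted log2 fold changes (horizontal axes) with 95% confidence intervals of the 10 genes (rows) in the 5 comparisons (panels), with called genes in red and dotted lines at a log2 fold change of 1 in either direction. Rnf43 (2.36) and Notum (2.75) are called between the diets in livers, none in xenografts, and Ctnnb1 is called at 1.60 and 1.61 between the models.

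The models were also compared on each diet. They differ in organ, cell line, described tumor driver, host strain, sex and site at the same time, which cannot be told apart. The xenografts were also transplanted, while the tumors of the livers arose in place. On the control diet, Ctnnb1, Axin2, Lgr5 and Rnf43 were called higher in xenografts than in livers, 4 of 9 genes tested, where 23.3% of all genes were called higher and 20.2% lower (43.5% in all). Ctnnb1 stood at 1420 ± 78.7 CPM in control xenografts and 470 ± 63.7 CPM in control livers (SD, n = 3 each), a 3.03-fold difference (log2 1.60, SE 0.160, edgeR adjusted p = 4.47e-06). Lgr5 was 9.10-fold higher at 8.22 ± 2.80 against 0.913 ± 0.781 CPM (SD, n = 3 each; log2 3.19, SE 0.676, edgeR adjusted p = 0.00153). Rnf43 was 3.98-fold higher (edgeR adjusted p = 0.00747) and Axin2 3.85-fold higher (edgeR adjusted p = 0.0128). Groups of these 4 genes did not overlap, which held for 65.1% of all genes (33.3% with xenografts higher and 31.8% lower). Without control liver 101 or 103 Axin2 was not called.

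Znrf3 had the opposite sign, at 20.6 ± 2.86 CPM in control xenografts against 34.9 ± 3.86 CPM in control livers (SD, n = 3 each). The value on the log2 scale, -0.76 (SE 0.181, edgeR adjusted p = 0.00319), missed the fold threshold, and the adjusted p alone called 59.5% of all genes. Tbx3, Notum, Nkd1 and Lef1 were not called, with log2 fold changes of 0.21, -0.58, -0.45 and 1.74, and Sp5 was not tested. Without control liver 102 the values of Notum and Nkd1 were 0.66 and 0.55. Without control xenograft 41, Lef1 was called as well.

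On the No-Trp diet, 1 of the 9 genes was called higher in the xenografts and 1 lower, where 24.5% of all genes were higher and 19.1% lower (43.7% in all, and 59.6% on the adjusted p alone). The 3796 higher and 2959 lower genes became 5797 and 2024 when scaled by library totals. Ctnnb1 stood at 1270 ± 102 CPM in xenografts and 415 ± 16 CPM in livers (SD, n = 3 each), and this gene had the smallest edgeR adjusted p of the 10 on this diet (4.11e-06, log2 fold change 1.61, SE 0.160). Notum stood at 2.49 ± 1.43 CPM in xenografts and 29.3 ± 15.8 CPM in livers (SD, n = 3 each) and was 11.8-fold lower in xenografts, with groups that did not overlap, as in 66.9% of all genes (37.4% with xenografts higher and 29.5% lower). The log2 fold change of Notum was -3.56 (SE 0.752, edgeR adjusted p = 0.00158). Axin2 and Rnf43 had values near 0 on this diet, -0.07 (95% confidence interval -1.29 to 1.14) and -0.01 (95% confidence interval -1.13 to 1.12), both of which turned positive when library totals replaced TMM factors. Znrf3 was lower without overlap of the groups but missed the fold threshold (-0.60, SE 0.181, edgeR adjusted p = 0.0124). Lef1 was not called (0.46, edgeR adjusted p = 0.692), and Sp5 was not tested. Lgr5 (1.41, edgeR adjusted p = 0.0701), Tbx3 (-1.42, edgeR adjusted p = 0.0534) and Nkd1 (-1.45, edgeR adjusted p = 0.0544) lay close to the threshold, and the last 2 were called lower with RLE factors, with DESeq2 and without Rn45s. The mice of this comparison and of that on the control diet are separate. Both contrasts came from 1 fit of all 12 libraries, however, and share its scaling, filter and estimates of spread.

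The pathway around these genes differed widely between the xenografts and the tumor-bearing livers. In the 9 lists, 34 of 73 genes tested were called higher and 11 lower in xenografts on the control diet, and 34 and 10 on the No-Trp diet. Over all genes, 23.3% were called higher and 20.2% lower on the control diet, and 24.5% and 19.1% on the No-Trp diet. Wnt7b, a ligand, stood at 360.0 ± 93.3 CPM in control xenografts and 3.04 ± 1.05 CPM in control livers (SD, n = 3 each), which is 6.88 on the log2 scale (SE 0.310, edgeR adjusted p = 1.36e-08). Wnt5a was higher by 5.04, Porcn by 4.81 and Wls by 3.98 on the log2 scale. All 34 genes outside the 10 that are named as called in this comparison were called in each of the 12 fits without 1 library. The central vein ligand Wnt9b was lower in xenografts (-5.37) and so was Rspo3 (-2.59), while Wnt2 was not called (-0.48, edgeR adjusted p = 0.637). Among the receptors, Lgr6 (6.47) and Fzd3 (5.75) were higher, and Fzd9 (-3.62) and Lgr4 (-1.95) lower.

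Of 9 secreted inhibitors tested, 7 were higher in control xenografts, led by Apcdd1 (log2 fold change 5.62) and Dkk2 (4.72), and Frzb was lower (-2.43). Among 14 relay and destruction complex genes, Apc2 (3.13) and Dvl2 (1.39) were higher, while Apc (0.25) and Axin1 (-0.06) were not called and Gsk3b (0.75, edgeR adjusted p = 3.53e-04) missed the fold threshold. Of the nuclear effectors, Tle2 (3.12) and Tle3 (2.52), both corepressors, were higher and Pygo1 (-3.39) and Tcf7l1 (-1.69) lower. Tcf7 (1.77) and Tcf7l2 (1.31) were also higher. Jup (2.14) and Ctnnd1 (1.25) were higher and Cdh2 (-2.32) lower. Among further targets, Sox9 (5.07) and Cd44 (4.56) were higher and Tnfrsf19 (-2.07) lower. Bile duct markers moved the same way as Sox9, with 3 of 5 called higher and summed levels of 84.2 to 153 CPM in control livers against 3770 to 10700 CPM in control xenografts, most of it Spp1, and their part in the result was not tested.

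The liver zonation genes were low in the tumors. On the control diet 13 of 14 pericentral genes were called lower in xenografts, with a median log2 fold change of -4.22, and 13 of 13 periportal genes, with a median of -5.84. The log2 fold changes were -1.54 for Glul, -5.80 for Cyp2e1 and -7.47 for Cyp1a2, and -5.84 for Cps1, -7.08 for Cyp2f2 and -2.58 for Hal. The general hepatocyte markers were low too, with 12 of 12 called lower and a median of -4.44, where 20.2% of all genes were called lower. Axin2, Lgr5 and Rnf43 were higher, and pericentral, periportal and general hepatocyte genes lower, in the same tumors.

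**Figure D5:**
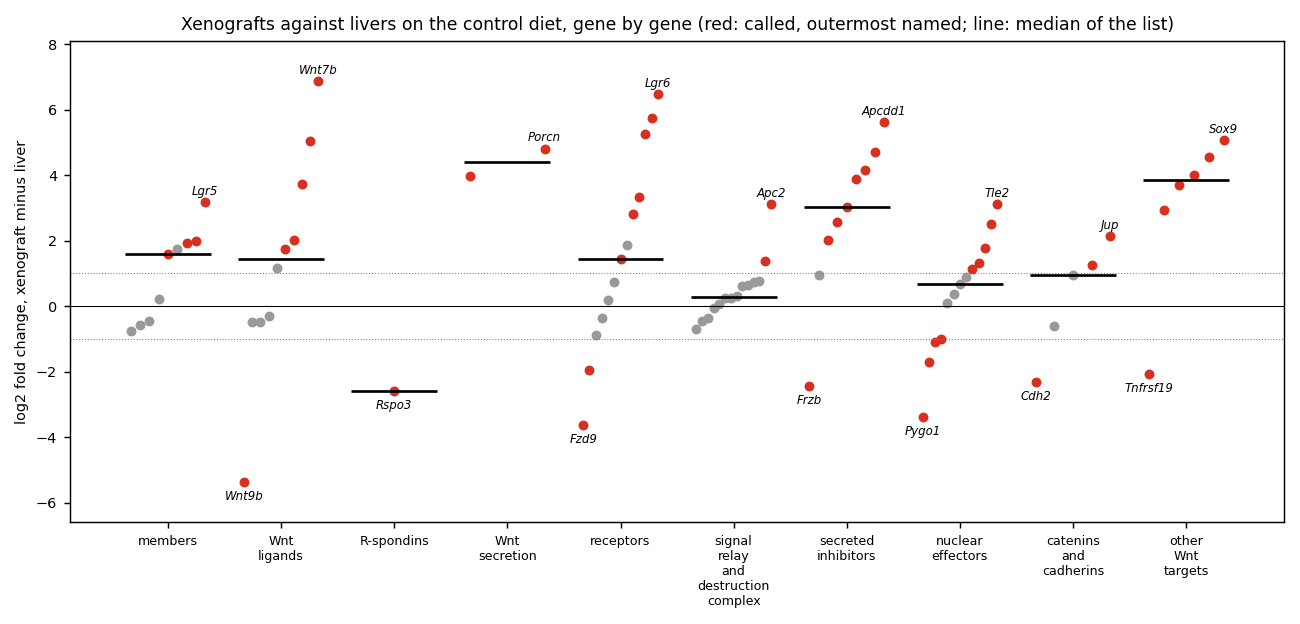
Log2 fold change of xenografts against livers on the control diet (vertical axis) of each tested gene, by pathway list (horizontal axis), with called genes in red and a line at the list's median. The ligand Wnt7b (6.88), the receptor Lgr6 (6.47) and the inhibitor Apcdd1 (5.62) stand highest in their lists, and Wnt9b (-5.37) lowest of the ligands.

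As a description, 7 of the 10 genes varied together among the livers. Znrf3 ran against these 7, with a Pearson r from -0.618 with Sp5 to -0.825 with Notum. Ctnnb1 was also negative with each, from -0.282 with Lgr5 to -0.734 with Tbx3. Lef1 lay nearer 0, between -0.359 with Sp5 and 0.0437 with Axin2. Over the 6 livers, the log2 level of Axin2 had a Pearson r of 0.926 with Lgr5, 0.911 with Tbx3, 0.944 with Rnf43, 0.937 with Notum, 0.903 with Nkd1 and 0.901 with Sp5, against 0.0437 with Lef1, -0.487 with Ctnnb1 and -0.713 with Znrf3. Over the 6 xenografts r was 0.827 with Lgr5, 0.714 with Ctnnb1, 0.709 with Notum, 0.627 with Tbx3 and 0.430 with Lef1, but 0.316 with Znrf3, 0.232 with Nkd1, -0.0244 with Sp5 and -0.259 with Rnf43. The points share the diet groups, the library depth and the scaling. Sp5 had 0 to 8 reads per liver, and how common r values of this size are over all genes was not tested. After the mean of each model was subtracted, the genes most like Axin2 over the 12 libraries, of 13862 with a mean of at least 1 CPM, were Wipi1 (r = 0.952), Fgfrl1 (0.927), Rmnd5b (0.919), Lrtm1 (0.910) and Mamdc2 (0.906). Those most like Lgr5 were Mamdc2 (0.928), Cpq (0.924), Fn1 (0.919), Wipi1 (0.918) and Prkaa2 (0.917), so that Wipi1 and Mamdc2 were in both sets of 5.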

How the data were processed

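RNA from 12 mice was sequenced, 1 library per mouse. The deposited values are whole read counts per gene symbol, without normalization. Per the study's methods, the authors trimmed reads with Trim Galore, aligned them to mm10 with STAR 2.7.2b and counted them with HTSeq. The strand setting and the rule for overlapping genes are not given in the sources used here. Reads that the counting left out (24.7% to 39.4% of each library) stayed out of library sizes and tests.

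Diets were compared within each model, in a fit of its own 6 libraries, in R 4.3.3 with the two-sided quasi-likelihood test of edgeR 4.0.16 (filterByExpr, TMM factors, robust glmQLFit, glmQLFTest). The interaction and the contrasts between models came from 1 fit of all 12 libraries with 4 group means. Each adjusted p comes from the Benjamini-Hochberg procedure, run over every gene of that fit. A standard error is the size of the log2 fold change divided by the square root of F. Levels are CPM with TMM factors of all 12 libraries. Exon lengths and gene coordinates are from GENCODE M21 on GRCm38, the assembly of mm10. Correlations used log2 CPM with a prior count of 2. The edgeR fits were also run on simulated counts, all drawn with the same dispersion and with no outlying mouse. That setting does not cover the spread seen between the livers.

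The 10 genes, the gene lists and the naming rule were chosen with earlier results of these data known. All 10 genes are named in every comparison. From each list at most the 2 called genes with the largest rise and the 2 with the largest fall are named, or all where 4 or fewer were tested or called, plus Wnt2, Wnt9b, Rspo3, Glul, Cyp2e1, Cyp1a2, Cps1, Cyp2f2, Hal, Lgr4, Tcf7l1, Tcf7l2, Tcf7, Axin1, Apc and Gsk3b. A gene that this rule would name is not reported here. Alternatives were RLE factors, library totals, no filter, DESeq2 1.42.0, resubmission as a covariate, the adjusted p alone, Rn45s left out, 1 fit of all libraries for the diets, and each library left out. Mice of a group are separate animals, so p-values weigh a difference against the spread between mice, as estimated by the model. All xenografts were raised from the same cell line, so the spread between them holds no variation between tumors of independent origin. P-values that involve the xenografts therefore bear on this line and not on a type of tumor. Genes with few reads, such as Sp5 and Lef1, are limited by counting error.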

Additional observations from a re-analysis of the deposited data

How the results depend on the processing

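No paired analysis was possible because no 2 groups share mouse numbers. Every value called kept its direction under each alternative run. Depth limits Sp5, Lef1 and Lgr5. Diets in livers: 0 of the 10 genes were called higher with library totals or with no filter and 4 with DESeq2, and library totals called 732 genes higher over all, while the adjusted p alone called 1696 lower. Library totals moved the median of all genes to -0.296 on the log2 scale and turned Wls to -0.073, Lgr4 to -0.26, Tcf7l2 to -0.085 and Apc to -0.11. Leaving out each library gave 0 to 5 of the 10 genes, 7 to 1959 genes higher and 1 to 1248 lower, and ranges of -0.093 to 0.21 for Lgr4, -0.15 to 3.0 for Cyp1a2 and -0.20 to 3.10 for Cyp2f2.

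Diets in xenografts, genes higher and lower over all: RLE factors 56 and 26, library totals 60 and 11, no filter 73 and 45, DESeq2 250 and 130, resubmission covariate 3 and 1, without Rn45s 57 and 28, and 1 fit of 12 libraries 18 and 5. Leaving out each library gave 7 to 35 higher and 2 to 43 lower, 0 of the 10 genes, and -0.71 to 0.12 for Notum. Axin2 and Lgr5 turned to 0.13 and 0.16 with the resubmission covariate.

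Difference between models: DESeq2 called 3 of the 10 genes and 1473 genes lower, the covariate 2 of the 10, and library totals 1825 genes higher and 437 lower. Leaving out each library gave 0 to 4 of the 10 genes, 467 to 1195 genes higher and 449 to 1386 lower. Ctnnb1 turned to -0.076 with RLE factors and with DESeq2, to -0.049 with the covariate and to -0.0092 without Rn45s, and ran from -0.096 to 0.099 without each library.

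Xenografts against livers: on the control diet the adjusted p alone called 1 of the 10 genes lower, and library totals turned Axin1 to 0.086. Leaving out each library gave 3 to 5 of the 10 higher, -0.25 to 0.65 for Tbx3, -0.98 to 0.66 for Notum, -0.90 to 0.55 for Nkd1 and -0.15 to 0.030 for Axin1. On the No-Trp diet RLE factors, DESeq2 and leaving out Rn45s called 3 lower and the adjusted p alone 2. Library totals called 2 of the 10 higher and 5797 genes higher over all, and turned Axin2 to 0.45 and Rnf43 to 0.57. Rnf43 turned to 0.0096 with no filter. Leaving out each library gave 1 to 2 higher, 1 to 3 lower, -0.40 to 0.48 for Axin2, -0.38 to 0.23 for Rnf43 and -0.40 to 1.08 for Lef1. Library totals also moved the median of all genes to 0.106 (diets in xenografts), 0.408 (difference between models), 0.173 (models, control diet) and 0.678 (models, No-Trp diet, where it was 0.147 with TMM factors). The cause of these changes was not tested.

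With no length, Ctnnb1 was 13.5, 14.2, 69.1 and 59.4 times the next gene in control livers, No-Trp livers, control xenografts and No-Trp xenografts. CTTTGAT alone was in 3.73% of all promoter windows.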
